A study of Homo sapiens with 18 samples.

Results

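Oxidative phosphorylation runs on 5 multi-subunit complexes of the inner mitochondrial membrane, and the genes described here are the nuclear genes for their subunits. They were chosen by symbol: every gene whose name begins with NDUFA, NDUFB, NDUFC, NDUFS or NDUFV and a digit, the genes SDHA, SDHB, SDHC and SDHD, and every name that begins with UQCR, with COX4 to COX8, or with ATP5. This gave 91 of the 23621 genes in the table, of which 40 belong to complex I, 4 to complex II, 10 to complex III, 17 to complex IV and 20 to complex V. A total of 83 passed the filter of at least 1 FPKM in at least 3 libraries and were tested: 39, 4, 10, 12 and 18 from complexes I to V. The 8 that did not pass were COX4I2, COX6A2, COX6B2, COX7B2, COX8C, ATP5L2 and the read-through transcripts NDUFC2-KCTD14 and ATP5J2-PTCD1. The letters of the rule also take in names that are not subunit genes: NDUFB2-AS1, UQCRBP1, ATP5S, ATP5SL and both read-throughs. UQCRHL, ATP5EP2 and ATP5L2 are near-identical copies of subunit genes, so the source of their reads is uncertain. The subunits encoded by mitochondrial DNA were not analysed here.

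RNA came from GIST-T1, a human cell line derived from a gastrointestinal stromal tumour (GIST) and labelled as dependent on KIT, the receptor tyrosine kinase that drives most such tumours. The 6 groups had 3 libraries each: imatinib with JQ1 for 24 h, JQ1 for 24 h, imatinib for 24 h, JQ1 for 6 h, imatinib for 6 h, and the solvent DMSO, for which the labels give no time. Every drug was used at 500 nM, also within the combination; imatinib inhibits KIT, and JQ1 displaces BET bromodomain proteins from acetylated chromatin. All libraries come from 1 cell line. Nothing in the labels tells whether replicates were grown as separate cultures, so p-values measure the spread between these libraries, which may be technical.

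Complexes I and II pass electrons from NADH and succinate to ubiquinone, complex III passes them on to cytochrome c, and complex IV, cytochrome c oxidase, hands them to oxygen. Complexes I, III and IV pump protons as they do so, and complex V, the ATP synthase, uses the gradient to make ATP. Complex II, succinate dehydrogenase (SDH), is also an enzyme of the tricarboxylic acid cycle, and its loss defines a separate class of GIST, SDH-deficient GIST. Many nuclear genes for these subunits have promoters with sites for nuclear respiratory factor 1 (NRF1), for ETS proteins such as GABP, and for YY1.

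The promoters of the genes are shown because these shared letters are a feature that the choice by symbol did not use. RefSeq entries were found for 90 of the 91 names, and promoter windows, 300 bases long with 250 bases before and 50 after the start of the gene, were available for 70, of which 67 belong to subunit genes and copies. On both strands, the NRF1 motif, GCGCA and GCGC with 1 base of any kind between them, stood in 16 of the 67 windows (23.9%), against 6.28% of all 27305 windows and 8.58% of the 15843 windows of protein-coding genes. The ETS motif CCGGAAG stood in 19 of the 67 (28.4%), against 10.7% of all windows and 14.2% of coding ones. The YY1 motif AAGATGGCG stood in 8 of the 67 (11.9%), against 1.85% of all windows and 2.74% of coding ones. No match to any of the 3 was present in 31 of the 67 windows. These are matches of letters and not measured binding. For each complex, the window with most kinds of motif is printed 5′ to 3′, with ties settled by the level of the gene; matches on either strand are in capitals. NDUFA4L2, whose RNA moved apart from the rest, is added and holds no match to the 3 motifs. The windows are on GRCh38.p14, whereas the expression values were made on hg19: NDUFA9 at chr12:4648864-4649163 (plus strand), SDHB at chr1:17053983-17054282 (minus strand), UQCR11 at chr19:1605413-1605712 (minus strand), COX8A at chr11:63974370-63974669 (plus strand), ATP5J at chr21:25735005-25735304 (minus strand) and NDUFA4L2 at chr12:57240713-57241012 (minus strand).
NDUFA9: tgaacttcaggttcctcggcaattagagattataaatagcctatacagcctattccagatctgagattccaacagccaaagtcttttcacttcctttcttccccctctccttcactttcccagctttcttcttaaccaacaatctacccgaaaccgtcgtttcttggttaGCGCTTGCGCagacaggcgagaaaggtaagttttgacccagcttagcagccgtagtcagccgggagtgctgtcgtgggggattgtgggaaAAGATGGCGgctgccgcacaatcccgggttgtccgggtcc
SDHB: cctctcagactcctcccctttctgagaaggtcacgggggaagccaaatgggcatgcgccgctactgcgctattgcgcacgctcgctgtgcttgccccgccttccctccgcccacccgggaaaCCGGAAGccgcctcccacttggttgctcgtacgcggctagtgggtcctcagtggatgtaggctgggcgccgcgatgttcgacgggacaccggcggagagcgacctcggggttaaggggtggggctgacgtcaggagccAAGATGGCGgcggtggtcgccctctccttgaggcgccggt
UQCR11: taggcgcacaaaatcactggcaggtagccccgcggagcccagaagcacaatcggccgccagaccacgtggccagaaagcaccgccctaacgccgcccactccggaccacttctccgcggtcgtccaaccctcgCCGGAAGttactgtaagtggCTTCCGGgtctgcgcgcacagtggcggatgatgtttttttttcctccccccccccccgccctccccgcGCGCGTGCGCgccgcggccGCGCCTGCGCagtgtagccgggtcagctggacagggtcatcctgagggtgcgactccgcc
COX8A: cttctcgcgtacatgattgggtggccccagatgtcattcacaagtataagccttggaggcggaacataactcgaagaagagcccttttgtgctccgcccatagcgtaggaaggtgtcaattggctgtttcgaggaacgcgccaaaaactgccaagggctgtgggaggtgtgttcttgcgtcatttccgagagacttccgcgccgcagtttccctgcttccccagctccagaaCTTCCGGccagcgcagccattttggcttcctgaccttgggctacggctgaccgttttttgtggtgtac
ATP5J: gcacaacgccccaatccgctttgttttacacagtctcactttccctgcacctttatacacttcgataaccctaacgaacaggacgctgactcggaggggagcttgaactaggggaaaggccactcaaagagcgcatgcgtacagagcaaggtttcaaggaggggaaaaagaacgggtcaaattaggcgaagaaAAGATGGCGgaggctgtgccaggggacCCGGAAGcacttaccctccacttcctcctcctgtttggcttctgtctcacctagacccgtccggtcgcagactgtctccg
NDUFA4L2: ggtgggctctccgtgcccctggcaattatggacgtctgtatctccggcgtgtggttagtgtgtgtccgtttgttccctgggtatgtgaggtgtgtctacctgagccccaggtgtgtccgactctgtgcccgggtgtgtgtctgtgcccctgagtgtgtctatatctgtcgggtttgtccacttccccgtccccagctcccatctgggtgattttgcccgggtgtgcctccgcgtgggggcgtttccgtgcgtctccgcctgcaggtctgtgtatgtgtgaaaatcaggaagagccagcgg

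Values are the deposited FPKM, reads scaled to transcript length and by a further step that the sources used here do not give. Changes are differences of log2(FPKM + 1). Most genes of the cell line had lower values after every treatment, with median log2 changes against DMSO of -2.05 in the combination, -1.49 with JQ1 for 24 h, -1.5 with imatinib for 24 h, -1.0 with JQ1 for 6 h and -0.69 with imatinib for 6 h over 12771 tested genes. Total FPKM per library ran from 286566 to 2463615, while the sum over the ERCC spike-ins, which the labels' protocols say were added after RNA was matched to cell count, stayed between 6505 and 6948 FPKM. Libraries thus do not share an equal total, and the even spike-in sum may come from the scaling step. In bulk RNA, fewer cells of a type and less RNA per cell cannot be told apart. Changes are therefore also given on a second scale, on which each library was divided by the median of its gene ratios, so that the median of all genes lies near 0; it is called the ratio scale here. The depth in reads is unknown. Of 8 GIST markers all were present in DMSO, with KIT at 644 and ANO1 at 346 FPKM, and their sum ran from 245 to 433 FPKM in the combination, against 4672 to 7149 FPKM in DMSO. Among markers of other cell types, the leukocyte gene PTPRC was at 0.107, the endothelial gene PECAM1 at 0.148 and the muscle gene MYH7 at 0.109 FPKM in DMSO. The 5 epithelial markers summed to 16.5 to 29.4 FPKM in the combination and 416 to 663 FPKM in DMSO, nearly all of it the keratin KRT18, with EPCAM at 2.84 FPKM; the part of these markers in the results was not tested.

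In DMSO the subunit genes were among the abundant transcripts of the cells. Of the 91 genes, 84 reached 1 FPKM, with a median of 325 FPKM, against a median of 25.7 FPKM over all 12661 genes at that level; 81 members stood above 25.7 FPKM. By complex, the medians over members at 1 FPKM or more were 237 FPKM for complex I, 228 for II, 280 for III, 909 for IV and 454 for V. The highest in each were NDUFA13 at 1547, SDHB at 413, UQCRH at 1819, COX8A at 2272 and ATP5E at 2411 FPKM. All members together summed to 9463 ± 2520 FPKM in the combination, 16791 ± 2074 with JQ1 for 24 h, 12693 ± 475 with imatinib for 24 h, 28052 ± 3423 with JQ1 for 6 h, 31552 ± 634 with imatinib for 6 h and 47865 ± 9679 in DMSO (SD, n = 3 each). Relative to DMSO these sums were 5.06-fold, 2.85-fold, 3.77-fold, 1.71-fold and 1.52-fold lower. The groups do not overlap with DMSO, whose libraries summed to 37235, 50190 and 56169 FPKM, and the combination spread from 7204 to 12182 FPKM with its replicate 2 highest.

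The share of total FPKM held by these genes moved far less than the sums. It was 3.37% ± 0.05 in the combination, 3.76% ± 0.02 with JQ1 for 24 h, 3.33% ± 0.01 with imatinib for 24 h, 3.87% ± 0.10 with JQ1 for 6 h, 3.93% ± 0.08 with imatinib for 6 h and 3.52% ± 0.14 in DMSO (SD, n = 3 each). The entry MIR1244 was left out of the totals. The libraries of the combination and of imatinib at 24 h lay at or below 3.39%, under all DMSO libraries, and those of JQ1 at both times and of imatinib at 6 h lay above them all. Complexes differed in this measure: complex I held 1.01% ± 0.02 in the combination against 1.17% ± 0.05 in DMSO, whereas complex II held 0.0965% ± 0.0014 in the combination against 0.0744% ± 0.0019 in DMSO. No test was run on these shares.

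**Figure D1:**
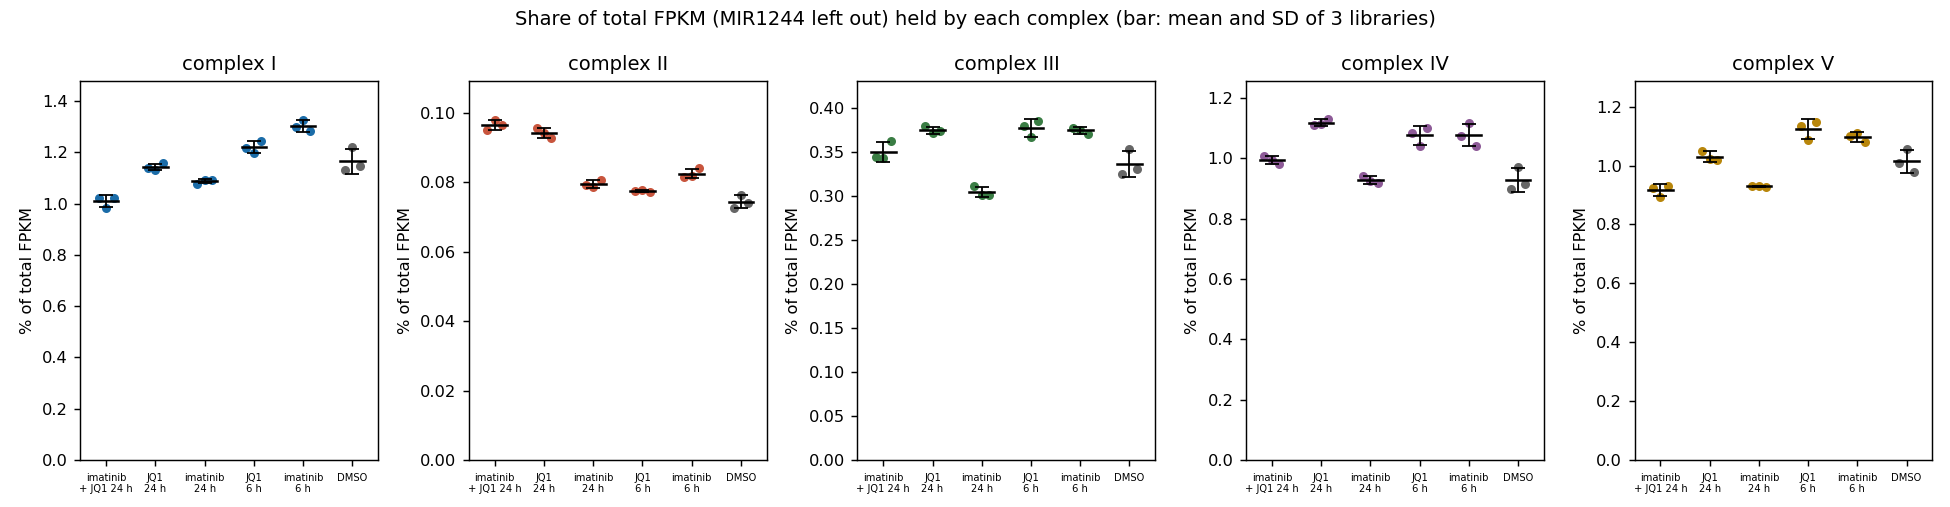
Share of total FPKM (y axis, percent, MIR1244 left out) held by the genes of complexes I to V in 18 libraries; points are libraries, bars the mean and SD of 3. Complex II held 0.0965% in the combination against 0.0744% in DMSO, and complex I 1.01% against 1.17%.

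In the combination all 83 tested genes of the 5 complexes fell and 0 rose, where a call is a limma adjusted p under 0.05 with a log2 change of at least 1 in size; the background was 86.0% of all tested genes called lower and 0.235% called higher. Their median log2 change was -2.40, with single genes between -3.84 and -1.04, against -2.05 over all genes. NDUFB2-AS1 passed the filter through DMSO alone, with 1.82 FPKM there and at most 0.812 FPKM in any other library, so its fall was fixed by the filter. Without it 82 of 82 fell in the combination, with a median of -2.41 and values between -3.84 and -1.16, and the counts of the other groups against DMSO were the same. After rescaling to the ratio scale 2 members fell, ATP5G1 and COX7A1, and 2 rose, SDHA and NDUFB5, beside a background of 10.1% lower and 9.17% higher, and the median was 0.03. With imatinib for 24 h 81 fell and 1 rose (background 72.1% lower and 0.642% higher), with a median of -1.90 against -1.5 over all genes. There, on the ratio scale, ATP5G1 fell and NDUFA4L2 rose (background 8.72% lower and 8.80% higher), and the median was -0.16. With JQ1 for 24 h 75 fell and 0 rose (background 75.3% lower and 0.399% higher), with a median of -1.54 against -1.49. Its ratio-scale calls were 0 lower and 1 higher, NDUFA2 (background 6.47% lower and 5.25% higher), with a median of 0.13. At an unadjusted limma p under 0.05 and any size, 83 members were lower and 0 higher in the combination (background 95.9% lower and 0.908% higher), and likewise 83 and 0 with JQ1 for 24 h (background 93.3% lower and 1.53% higher). On the ratio scale these counts were 29 lower and 31 higher in the combination (background 42.1% lower and 41.5% higher) and 18 lower and 41 higher with JQ1 for 24 h (background 40.8% lower and 39.0% higher). With imatinib for 24 h 82 were lower and 1 higher on the deposited scale, and 44 lower and 18 higher on the ratio scale. No background was counted at this threshold for imatinib at 24 h, so its counts cannot be set against all genes. NDUFB5 and NDUFA2 are accessory subunits of complex I named here after their values were seen.

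At 6 h the changes were smaller. With JQ1 13 members fell and 0 rose (background 49.8% lower and 0.642% higher), with a median of -0.80 against -1.0 over all genes. With imatinib limma called 0 lower and 0 higher at this threshold (background 20.0% lower and 0.384% higher), with a median of -0.58 against -0.69. At an unadjusted limma p under 0.05 and any size, JQ1 had 83 members lower and 0 higher (background 91.7% lower and 1.73% higher), and imatinib 78 lower and 0 higher (background 81.6% lower and 1.88% higher). The ratio scale called 0 members at 6 h with JQ1 (background 2.57% lower and 2.47% higher) and 0 with imatinib (background 2.08% lower and 1.22% higher), and their medians were 0.33 with JQ1 and 0.19 with imatinib, so the sign of the 6 h medians turns with the scale. On that scale an unadjusted limma p under 0.05 at any size was reached by 3 members lower and 66 higher with JQ1 (background 35.8% lower and 36.6% higher), and by 1 lower and 56 higher with imatinib (background 31.9% lower and 33.3% higher). The JQ1 count rests on single libraries: it was 33 without DMSO replicate 1, 4 without DMSO replicate 3, 8 without JQ1 6 h replicate 2 and 22 without JQ1 6 h replicate 3. The imatinib count was 2 without DMSO replicate 1, the DMSO library with the lowest member sum.

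The members moved within a narrow band. The interquartile range of their log2 changes was 0.47 in the combination, 0.48 with JQ1 for 24 h, 0.46 with imatinib for 24 h, 0.24 with JQ1 for 6 h and 0.14 with imatinib for 6 h. Over all tested genes it was 1.20, 0.92, 1.11, 0.61 and 0.51 in the same order. The members are abundant, so the 1139 tested genes with a mean of at least 100 FPKM are the closer comparison; 58 members are among them. Those 1139 genes had median changes of -2.46, -1.66, -1.97, -0.88 and -0.70 in that order, against -2.40, -1.54, -1.90, -0.80 and -0.58 for the members, and interquartile ranges between 0.34 and 1.08.

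**Figure D2:**
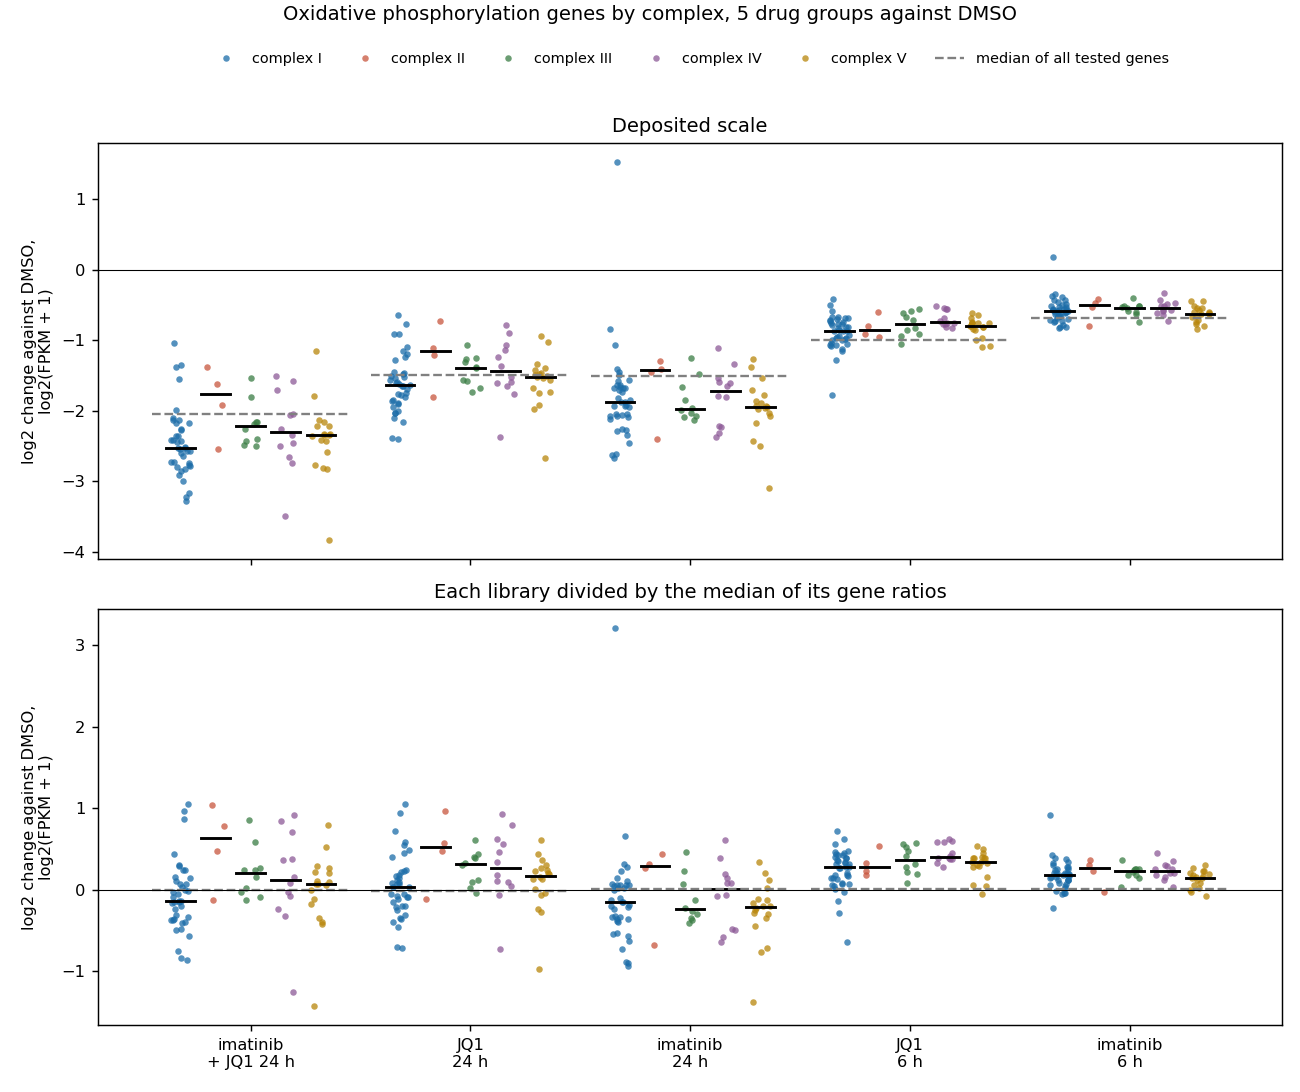
Log2 change against DMSO (y axis, on log2(FPKM + 1)) of the 83 tested genes by complex in 5 drug groups, on the deposited scale (top) and the ratio scale (bottom). Points are genes, black bars the median of a complex, dashed lines the median of all tested genes; the point far above the rest with imatinib for 24 h is NDUFA4L2, at 1.53 on top and 3.21 below.

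Complex I has 7 core subunits among the members, which carry the flavin and iron-sulphur centres, and 29 accessory subunits around them. In the combination the median log2 change of complex I was -2.53, and on the ratio scale it was -0.14. Besides NDUFB2-AS1, 38 of 38 tested members fell (background 86.0% lower). The core subunits stayed close together in the combination, between -2.79 and -2.42, and the accessory subunits spread from -3.28 to -1.38. With JQ1 for 24 h the median of complex I was -1.63 and 35 of 39 fell (background 75.3% lower). With imatinib for 24 h the median was -1.87 and 37 of 39 fell (background 72.1% lower). The ratio-scale medians of these groups were 0.04 and -0.15.

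NDUFS6, a zinc-binding accessory subunit, had the lowest change of complex I in the combination. Its level was 59.0, 119 and 78.5 FPKM in the combination, 127, 146 and 184 with JQ1 for 24 h, 121, 128 and 128 with imatinib for 24 h, and 644, 852 and 948 in DMSO. All treated libraries lay below all DMSO libraries. In the combination it fell, with a log2 change of -3.28 ± 0.21 (SE; limma adjusted p = 1.02e-12) and of -0.85 on the ratio scale, which is no call. NDUFA9, an accessory subunit near the quinone site, had 16.4, 28.6 and 21.9 FPKM in the combination and 175, 217 and 247 in DMSO, with no overlap, and its log2 change was -3.22 ± 0.18. NDUFA13, also known as GRIM-19 and the most abundant member of complex I, averaged 224 ± 63.1 FPKM in the combination and 1547 ± 338 in DMSO (SD, n = 3 each), a log2 change of -2.79 ± 0.20.

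Of the 13 members that fell with JQ1 at 6 h, 10 belonged to complex I, which has 39 of the 83 tested members. This is 25.6% of its tested members, below the background of 49.8%, and among its core subunits 4 of 7 fell (57.1%). Between the drugs at 6 h, 2 members were lower with JQ1 than with imatinib, among them NDUFA4L2 (background 9.36% lower and 1.95% higher). On the ratio scale 0 were called (background 3.30% lower and 3.43% higher), with NDUFA4L2 at -0.85, while 7 members were lower and 45 higher there at an unadjusted limma p under 0.05 and any size (background 36.3% lower and 37.9% higher).

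NDUFA4 and its paralog NDUFA4L2 carry complex I names, but the human NDUFA4 protein is now assigned to complex IV; NDUFA4L2 is known as a target of hypoxia-inducible factors in human cells. NDUFA4L2 had 10.9, 17.6 and 11.6 FPKM in the combination, 14.7, 18.3 and 22.4 with JQ1 for 24 h, 101, 106 and 102 with imatinib for 24 h, 17.7, 15.3 and 16.8 with JQ1 for 6 h, 39.4, 40.9 and 39.3 with imatinib for 6 h, and 25.6, 36.1 and 46.4 in DMSO. Imatinib at 24 h stands above every other group with no overlap, imatinib at 6 h overlaps with DMSO, and the 3 groups that received JQ1 lie below all DMSO libraries. With imatinib for 24 h it rose by 1.53 ± 0.20 on the log2 scale (SE; limma adjusted p = 1.92e-07), and by 3.21 on the ratio scale, a call on both scales. NDUFA4 had 29.5, 32.8 and 33.9 FPKM there, against 125, 179 and 182 FPKM in DMSO, and fell, with a log2 change of -2.28 ± 0.18 and -0.57 on the ratio scale.

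In the combination NDUFA4L2 lay below imatinib alone. Against imatinib alone at 24 h the log2 change was -2.89 ± 0.20 (SE; limma adjusted p = 1.11e-10) and -2.25 on the ratio scale, a call on both. JQ1 for 24 h against imatinib for 24 h gave -2.44 ± 0.20, and -2.49 on the ratio scale. Against DMSO NDUFA4L2 fell in the combination, with -1.36 ± 0.20, but its ratio-scale value was 0.96, no call. With JQ1 for 6 h it was -1.04 ± 0.20, a call that is lost without DMSO replicate 3 (-0.84) or without JQ1 6 h replicate 2 (-0.98), and the ratio scale gave 0.07. With JQ1 for 24 h its log2 change was -0.91 ± 0.20 and 0.73 on the ratio scale, a fall at this threshold only when DMSO replicate 1 (-1.12) or JQ1 24 h replicate 3 (-1.05) is left out. With imatinib for 6 h it was 0.18 ± 0.20 and 0.92 on the ratio scale, no calls, and on the deposited scale it was -0.04 without DMSO replicate 1.

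**Figure D3:**
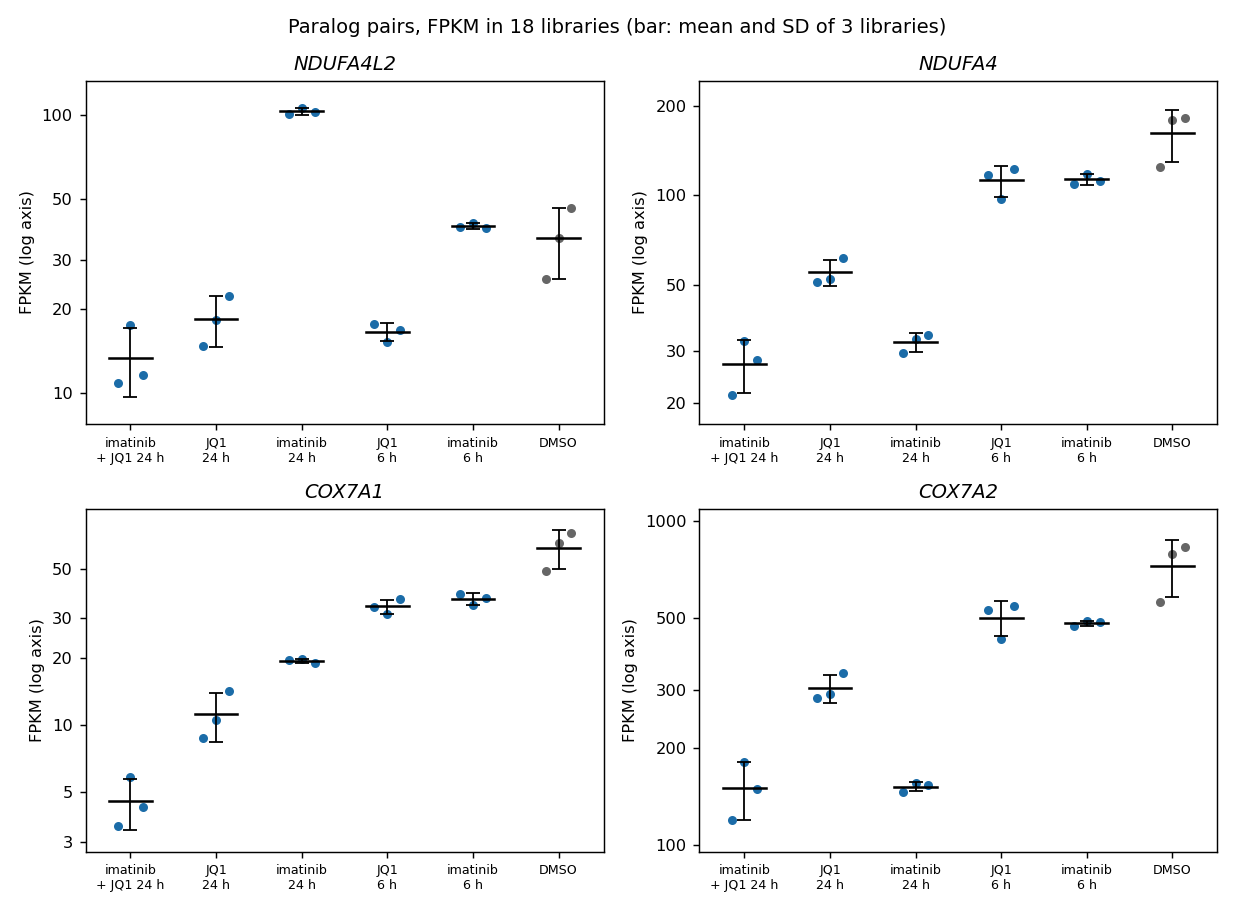
FPKM (y axis, log scale) of NDUFA4L2, NDUFA4, COX7A1 and COX7A2 in 18 libraries by group; points are libraries, bars the mean and SD of 3. NDUFA4L2 lies at 101 to 106 FPKM with imatinib for 24 h, above every other library, whereas NDUFA4 there lies at 29.5 to 33.9 FPKM, below DMSO.

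Complex II had the smallest median change of the 5 complexes in the combination, a description with no test. Its 4 genes all fell there (background 86.0% lower). They had a median log2 change of -1.77 in the combination and 0.64 on the ratio scale, where the median of the other 4 complexes lay between -0.14 and 0.20. SDHA, the flavoprotein that binds succinate, had 72.1, 142 and 86.6 FPKM in the combination, 132, 154 and 172 with JQ1 for 24 h, 103, 103 and 101 with imatinib for 24 h, and 200, 253 and 315 in DMSO. All libraries of the 3 treatments lay below DMSO. The log2 change of SDHA was -1.38 ± 0.20 in the combination (SE; limma adjusted p = 1.07e-06), -0.73 ± 0.20 with JQ1 for 24 h, no call, and -1.29 ± 0.20 with imatinib for 24 h. These values turn sign on the ratio scale, to 1.04, a call in the other direction, 0.97 and 0.44. SDHA has close copies elsewhere in the genome, so some of its reads may have been placed with them.

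SDHB, the iron-sulphur subunit, had 52.9, 90.3 and 68.6 FPKM in the combination, 104, 114 and 130 with JQ1 for 24 h, 71.7, 79.2 and 77.4 with imatinib for 24 h, and 321, 431 and 488 in DMSO. It fell in these 3 groups, with log2 changes of -2.54 ± 0.19, -1.81 ± 0.19 and -2.41 ± 0.19, and its ratio-scale values were -0.13, -0.11 and -0.67. Of the membrane anchors, SDHC averaged 37.7 ± 9.63 FPKM in the combination and 144 ± 29.0 in DMSO, and SDHD averaged 64.2 ± 15.9 FPKM in the combination and 199 ± 40.8 in DMSO (SD, n = 3 each). Both anchors fell in the 3 groups at 24 h, SDHC with -1.92 and SDHD with -1.62 in the combination, and both turned positive on the ratio scale in all 3, at 0.48 and 0.79 in the combination. The fall of SDHD with JQ1 for 24 h, -1.11 ± 0.18, is no call without DMSO replicate 3 (-0.98). All 4 transcripts were present in every library, the lowest at 28.6 FPKM, which is SDHC in the combination.

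Complex III had a median log2 change of -2.22 in the combination, -1.39 with JQ1 for 24 h and -1.98 with imatinib for 24 h. All 10 members fell in each of the 3 (background 86.0%, 75.3% and 72.1% lower). The ratio-scale medians were 0.20, 0.32 and -0.24. The 3 core subunits UQCRC1, UQCRC2 and the Rieske protein UQCRFS1 fell in the combination, with log2 changes from -2.50 to -2.40. UQCRC1 had the lowest change and averaged 20.0 ± 6.74 FPKM in the combination and 116 ± 26.2 in DMSO (SD, n = 3 each). UQCRH, the hinge protein that helps cytochrome c bind, averaged 400.2 ± 102 FPKM in the combination and 1819 ± 388 in DMSO and fell, with -2.19 ± 0.19, but 0.24 on the ratio scale. The highest change belonged to UQCRBP1, named as a copy of the subunit gene UQCRB and not a subunit gene itself, at -1.54 ± 0.17 and 0.86 on the ratio scale.

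Complex IV is the complex with tissue paralogs. Its median log2 change was -2.31 in the combination, -1.44 with JQ1 for 24 h and -1.73 with imatinib for 24 h. In these groups 12, 10 and 12 of 12 tested members were lower (background 86.0%, 75.3% and 72.1%), and the ratio-scale medians were 0.12, 0.26 and 0.01. COX7C, a small membrane subunit and over all 18 libraries the most abundant member of complex IV, averaged 504 ± 139 FPKM in the combination and 2088 ± 396 in DMSO and fell, with -2.07 ± 0.19, but 0.37 on the ratio scale. COX7A2L, known as a factor that joins complexes III and IV into supercomplexes, had the highest change of the complex, -1.51 ± 0.18 and 0.92 on the ratio scale.

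The ubiquitous forms COX4I1, COX6A1 and COX6B1 were at 1485, 1454 and 649 FPKM in DMSO. Their counterparts in other tissues, COX4I2 of lung, COX6A2 of muscle and COX6B2 of testis, averaged 0.154, 0.110 and 0.201 FPKM in DMSO, near the floor of the table, and were not tested. The highest value of any of these 3 in any library was 0.361 FPKM. In the combination COX4I1, COX6A1 and COX6B1 fell, with log2 changes of -2.35 ± 0.19, -1.59 ± 0.20 and -2.45 ± 0.20, and their ratio-scale values were 0.08, 0.85 and -0.03.

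COX7A1, the form of subunit 7A found in heart and skeletal muscle, was the exception among the tissue paralogs: it was present at 61.9 ± 12.1 FPKM in DMSO (SD, n = 3), while the highest value of the 5 muscle markers in any library was 0.307 FPKM. It had 3.55, 5.87 and 4.32 FPKM in the combination, 8.79, 10.5 and 14.2 with JQ1 for 24 h, 19.5, 19.7 and 18.9 with imatinib for 24 h, 33.6, 31.5 and 36.5 with JQ1 for 6 h, 38.6, 34.2 and 36.9 with imatinib for 6 h, and 48.5, 65.0 and 72.2 in DMSO. All treated groups lie below DMSO, the 3 groups at 24 h do not overlap with each other, and the 2 groups at 6 h do. COX7A1 fell, with a log2 change of -3.50 ± 0.18 in the combination (SE; limma adjusted p = 4.73e-14), -2.37 ± 0.18 with JQ1 for 24 h and -1.61 ± 0.18 with imatinib for 24 h. Their ratio-scale values were -1.25, a call, -0.73 and 0.08, so the sign with imatinib turns with the scale. At 6 h its changes were -0.83 ± 0.18 with JQ1 and -0.73 ± 0.18 with imatinib, no calls, with 0.29 and 0.04 on the ratio scale. Its ubiquitous counterpart COX7A2 had 120, 181 and 149 FPKM in the combination and 562, 790 and 827 in DMSO and fell, with -2.27 ± 0.18, but 0.16 on the ratio scale.

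Complex V had a median log2 change of -2.35 in the combination, -1.52 with JQ1 for 24 h and -1.94 with imatinib for 24 h. In these groups 18, 17 and 18 of 18 tested members were lower (background 86.0%, 75.3% and 72.1%), and the ratio-scale medians were 0.07, 0.18 and -0.21. The 5 subunits of the F1 head, which makes ATP, fell in the combination, with log2 changes from -2.77 to -2.22. Among them ATP5B, the catalytic beta subunit, averaged 211 ± 71.9 FPKM in the combination and 1411 ± 263 in DMSO (SD, n = 3 each) and had a log2 change of -2.77 ± 0.20. ATP5E, the epsilon subunit and the most abundant member of complex V, averaged 482 ± 115 FPKM in the combination and 2411 ± 448 in DMSO and fell, with -2.33 ± 0.18, but 0.10 on the ratio scale. Its near-identical copy ATP5EP2 fell, with -1.80 ± 0.20, but 0.52 on the ratio scale. The 4 subunits of the peripheral stalk fell, with changes from -2.42 to -2.16, and so did the 3 small Fo subunits, from -2.83 to -2.33.

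The c ring of the ATP synthase is built from 1 protein that 3 genes encode, ATP5G1, ATP5G2 and ATP5G3, and these 3 moved apart. ATP5G1 had 26.7, 44.4 and 31.6 FPKM in the combination, 70.1, 73.4 and 87.3 with JQ1 for 24 h, 55.0, 53.7 and 61.2 with imatinib for 24 h, 284, 232 and 308 with JQ1 for 6 h, 279, 287 and 280 with imatinib for 6 h, and 398, 499 and 600 in DMSO. The libraries at 24 h lie far below those at 6 h, which lie below DMSO. The log2 change of ATP5G1 was -3.84 ± 0.19 in the combination (SE; limma adjusted p = 1.7e-14), the lowest of any tested member there, -2.67 ± 0.19 with JQ1 for 24 h and -3.10 ± 0.19 with imatinib for 24 h. Its ratio-scale values were -1.43, -0.97 and -1.37, calls in the combination and with imatinib.

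ATP5G2 had 76.7, 137 and 97.2 FPKM in the combination, 133, 160 and 183 with JQ1 for 24 h, 178, 165 and 168 with imatinib for 24 h, and 349, 469 and 543 in DMSO. It fell in the 3 treated groups, with -2.14 ± 0.20, -1.5 ± 0.20 and -1.39 ± 0.20, and its ratio-scale values had the other sign, 0.29, 0.20 and 0.35. ATP5G3 averaged 26.0 ± 7.76, 47.9 ± 7.42 and 33.1 ± 1.17 FPKM in these groups and 186 ± 36.1 in DMSO, and fell, with -2.81 ± 0.19, -1.93 ± 0.19 and -2.43 ± 0.19 and ratio-scale values of -0.42, -0.24 and -0.72. In DMSO ATP5G1 and ATP5G2 were at similar levels, 499 ± 101 and 454 ± 98.2 FPKM, and in the combination ATP5G2 was the most abundant of the 3.

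**Figure D4:**
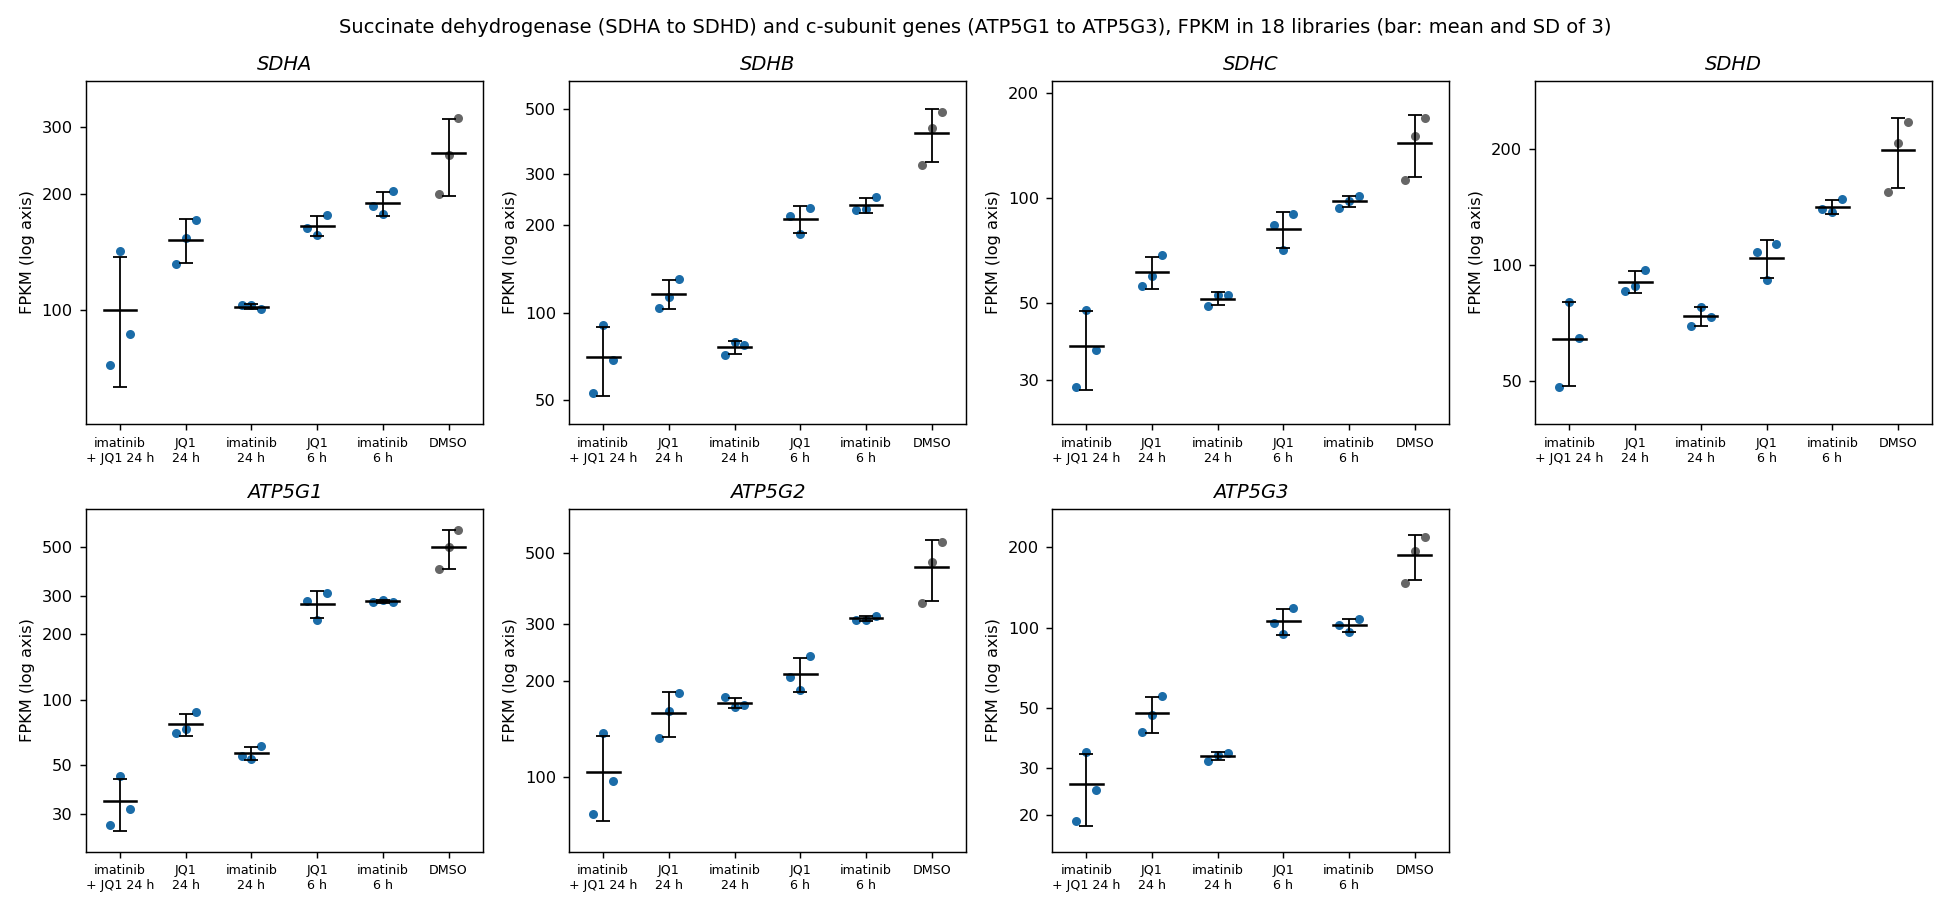
FPKM (y axis, log scale) of the 4 succinate dehydrogenase genes and the 3 c-subunit genes in 18 libraries by group; points are libraries, bars the mean and SD of 3. ATP5G1 lies at 26.7 to 44.4 FPKM in the combination, against 398 to 600 in DMSO, and SDHA has the smallest distance between these groups.

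Ratios of 2 genes within a library do not depend on how libraries are scaled, so they were used to compare partners. The ratio of NDUFA4L2 to NDUFA4 averaged 0.490 in the combination, 0.333 with JQ1 for 24 h, 3.23 with imatinib for 24 h, 0.148 with JQ1 for 6 h, 0.352 with imatinib for 6 h and 0.220 in DMSO. It was above 1 in the 3 libraries of imatinib for 24 h and in no others. The ratio of COX7A1 to COX7A2 averaged 0.0303 in the combination, 0.0364 with JQ1 for 24 h, 0.128 with imatinib for 24 h, 0.0678 with JQ1 for 6 h, 0.0757 with imatinib for 6 h and 0.0853 in DMSO. At 24 h it was thus below DMSO in the 2 groups with JQ1 and above it with imatinib alone.

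The ratio of ATP5G1 to ATP5G2 averaged 0.332 in the combination, 0.487 with JQ1 for 24 h, 0.333 with imatinib for 24 h, 1.31 with JQ1 for 6 h, 0.901 with imatinib for 6 h and 1.10 in DMSO. The ratio of SDHB to SDHA averaged 0.720, 0.761, 0.745, 1.26, 1.23 and 1.62 in the same order, below DMSO in every treated library. The ratio of the membrane anchors, SDHD to SDHC, averaged 1.71, 1.48, 1.43, 1.28, 1.45 and 1.38. The ratio of the copy UQCRHL to UQCRH was 0.396 in the combination and 0.390 in DMSO, and these libraries overlap. In all, 8 pairs were compared with DMSO in 5 groups, and 34 of these 40 comparisons had libraries that do not overlap, with an exact two-sided permutation p of 0.1, the smallest that 3 against 3 libraries can give, and 0.118 after Benjamini-Hochberg adjustment over the 40. Ratios of other genes were not computed, so how often any 2 genes separate in this way is unknown. Whether the 34 are a trait of these pairs therefore cannot be said.

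**Figure D5:**
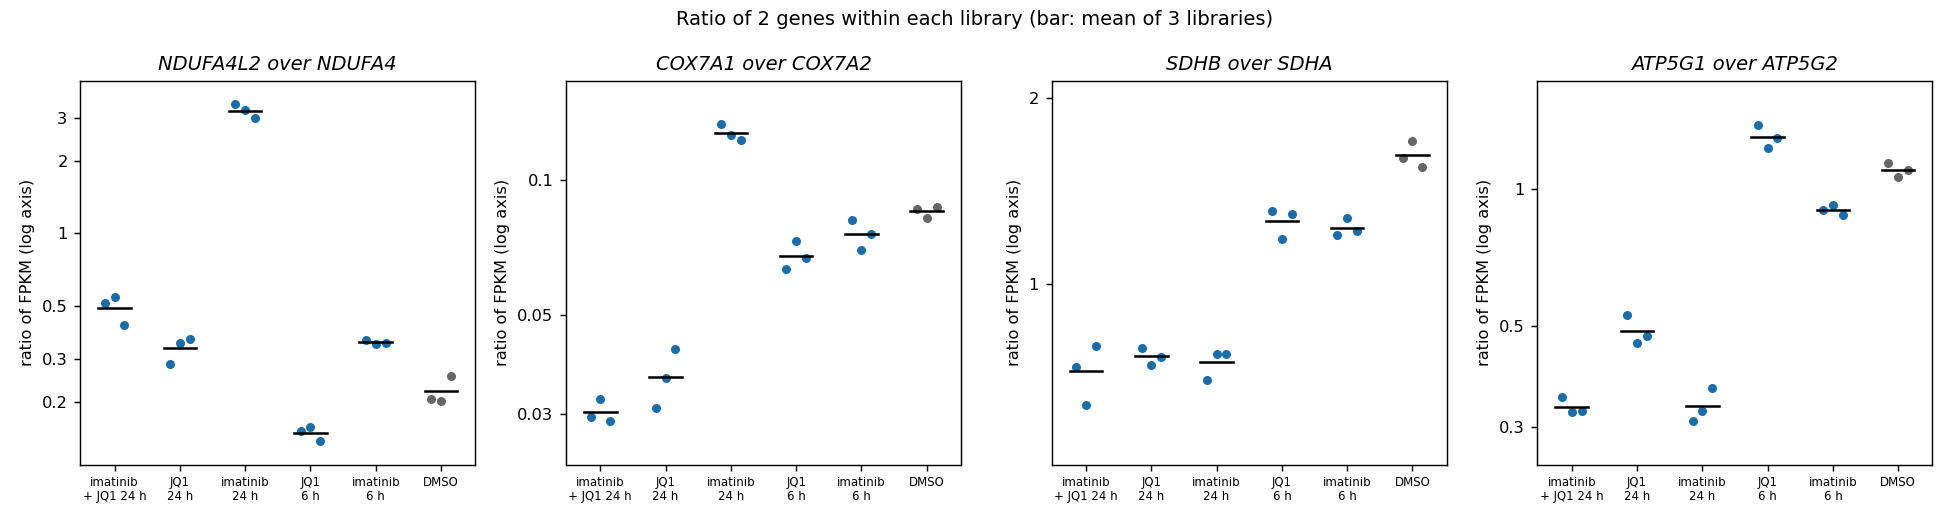
Ratio of FPKM of 2 genes within each library (y axis, log scale) by group; points are libraries, bars the mean of 3. The ratio of NDUFA4L2 to NDUFA4 is near 3.23 with imatinib for 24 h and at or below 0.544 in all other libraries, and those of SDHB to SDHA and of ATP5G1 to ATP5G2 are lower in the 3 groups at 24 h than in DMSO.

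The combination was set against each drug alone at 24 h to ask what the second drug added. Against imatinib 6 members were lower and 0 higher (background 14.5% lower and 0.423% higher), among them COX7A1, NDUFA4L2 and the complex I subunits NDUFA5, NDUFB10 and NDUFC1, the last 3 named here after their values were seen. COX7A1 had a log2 change of -1.89 ± 0.18 (SE; limma adjusted p = 2.12e-08), and COX7A1 (-1.33) and NDUFA4L2 were the 2 called on the ratio scale (background 5.58% lower and 2.37% higher). The deposited-scale count was 12 without combination replicate 2. The median of the members against imatinib was -0.44 against -0.50 over all genes, and 0.24 on the ratio scale. At an unadjusted limma p under 0.05 and any size, 48 members were lower and 0 higher against imatinib (background 65.5% lower and 2.65% higher), and on the ratio scale 12 were lower and 53 higher (background 35.6% lower and 39.8% higher). Against JQ1 12 members were lower and 0 higher (background 7.35% lower and 0.0470% higher), among them ATP5G1 and COX7A1, and the ratio scale called 0 (background 0.814% lower and 0.227% higher). At an unadjusted limma p under 0.05 and any size, 81 members were lower and 0 higher against JQ1 (background 76.7% lower and 0.243% higher), and on the ratio scale 37 were lower and 7 higher (background 26.1% lower and 30.4% higher). The median of the members against JQ1 was -0.82 against -0.54 over all genes, and -0.10 on the ratio scale. The count of 12 rests on single libraries: it was 2 without combination replicate 1, 46 without combination replicate 2, 23 without the unnumbered JQ1 24 h library and 4 without JQ1 24 h replicate 3. The unnumbered library is so called because its number in the deposited values matches no sample title of its group. It was tied to the group only. The call for COX7A1 against JQ1, -1.12 ± 0.18, is lost without combination replicate 1 (-0.99) or JQ1 24 h replicate 3 (-0.95).

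The 2 times of each drug were compared next. At 24 h of imatinib, set against 6 h, 65 members fell and 1, NDUFA4L2, rose (background 33.4% lower and 0.501% higher), with a median of -1.30 against -0.77 over all genes. NDUFA4L2 rose by 1.35 ± 0.20 between these times, and by 2.29 on the ratio scale. On that scale ATP5G1 was the only member called lower, with -1.34 (background 4.38% lower and 3.98% higher). Without the size threshold, 58 members were lower and 4 higher there at an unadjusted limma p under 0.05. No background was counted at this threshold between the imatinib times, so these counts cannot be set against all genes. At 24 h of JQ1, set against 6 h, 11 members fell and 0 rose (background 14.2% lower and 0.509% higher), while 69 were lower and 0 higher at an unadjusted limma p under 0.05 and any size (background 58.8% lower and 6.00% higher), and on the ratio scale ATP5G1 (-1.27) and COX7A1 (-1.02) fell (background 3.45% lower and 2.66% higher). At an unadjusted limma p under 0.05 and any size, 48 members were lower and 14 higher on the ratio scale. No background was counted there, so these counts also cannot be set against all genes. Without JQ1 6 h replicate 2 or JQ1 24 h replicate 3 the count of 11 was 18 or 20. Between JQ1 and imatinib at 24 h the call with its size threshold was reached by 1 member, NDUFA4L2, which was lower with JQ1 on both scales (background 4.88% lower and 3.59% higher, and on the ratio scale 6.09% and 3.57%), and by 0 higher, or up to 2 when single libraries were left out. Smaller differences were more frequent. At an unadjusted limma p under 0.05 and any size, 4 members were lower and 38 higher with JQ1 than with imatinib (background 22.2% lower and 23.2% higher), and on the ratio scale 9 were lower and 61 higher (background 37.6% lower and 39.2% higher). The members' median was 0.34 against 0.04 over all genes, and 0.32 on the ratio scale.

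The interaction at 24 h, the log2 change in the combination less the changes in each single drug, was higher for 46 members and lower for 1 (background 46.8% higher and 0.932% lower). A positive value means that the combination lay above the sum of both single changes. The members' median was 1.06 against 0.95 over all genes, and 0.08 on the ratio scale. With libraries on the ratio scale 0 were higher and NDUFA4L2 alone was lower (background 4.88% higher and 5.83% lower), while 24 were higher and 20 lower at an unadjusted limma p under 0.05 and any size (background 36.3% higher and 35.3% lower), and the count of 46 was 23 without combination replicate 2. NDUFA4L2 had an interaction of -1.98 ± 0.28 (SE; limma adjusted p = 3.9e-06) and -2.97 on the ratio scale. The 5 largest positive ones were ATP5G1 at 1.93, NDUFS6 at 1.80, NDUFA9 at 1.78, ATP5B at 1.71 and SDHB at 1.67, with 0.91, 0.78, 0.76, 0.69 and 0.66 on the ratio scale, no calls there.

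Other genes of the pathway were counted in lists, beside the background of 86.0% called lower in the combination. In the combination the factors that assemble the complexes fell in 14 of 14 tested genes for complex I with the acyl carrier gene NDUFAB1, 4 of 4 for complex II, 8 of 8 for complex III with the cytochrome genes, 20 of 21 for complex IV and 6 of 6 for complex V with subunits under other symbols, and 0 rose. NDUFAB1 is not among the members, since its symbol has no digit where the rule asks for it. The tricarboxylic acid cycle and pyruvate dehydrogenase genes fell in 18 of 18, the carriers and membrane organisers in 14 of 14, and the regulators of mitochondrial gene expression in 15 of 15. Their median log2 changes ran from -2.25 for the complex V list to -2.80 for the carriers, against -2.05 over all genes, and ratio-scale medians from -0.53 to 0.04. With imatinib for 24 h these lists had 14, 4, 8, 19, 5, 17, 14 and 14 lower in the same order (background 72.1%), and with JQ1 for 24 h 13, 3, 8, 18, 5, 16, 14 and 15 (background 75.3%). Some genes of the lists rose on the ratio scale in the combination. SURF1, the complex IV factor that was not called, had -0.52 ± 0.18 (1.81 on the ratio scale). COA5, also for complex IV, had -1.18 ± 0.16 (1.03), and C6orf57, for complex II, -1.09 ± 0.21 (1.19). The gene with the largest fall of each list in the combination is named next, so those values are the lower ends of the lists. Among assembly factors, TACO1, which helps translate the mitochondrial COX1 message, had -3.79 ± 0.19 (-1.51 on the ratio scale), and NDUFAF6, for complex I, -3.59 ± 0.17 (-1.40). PPRC1, a coactivator related to PGC-1alpha, had -3.83 ± 0.17 (-1.68), DLAT of the pyruvate dehydrogenase complex -3.49 ± 0.17 (-1.24), and the outer membrane channel VDAC1 -3.49 ± 0.20 (-1.08). CYCS, cytochrome c itself, had -3.04 ± 0.17 (-0.69), ATPIF1, the inhibitor of the ATP synthase, -2.79 ± 0.20 (-0.37) and SDHAF1, an SDH assembly factor, -2.56 ± 0.20 (-0.40), the last 3 under the threshold on the ratio scale.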

How the data were processed

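Poly(A) RNA of 18 GIST-T1 libraries was sequenced as single-end reads with a stranded kit, per the labels' protocols. The authors deposited 1 table of FPKM values, made with STAR and Cufflinks on hg19 per the submitters' processing notes; versions and the step that scaled the values are not given in the sources used here, and the read depth is unknown. Cufflinks shares reads between near-identical genes, so the values of such copies are uncertain. Fits were made here with limma 3.58.1 in R 4.3.3 on log2(FPKM + 1), with 1 mean per group, a mean-variance trend and 12 residual degrees of freedom, over genes that reached 1 FPKM in 3 or more libraries. Benjamini-Hochberg adjustment ran over all tested genes within each of 12 comparisons, and a call needs an adjusted p under 0.05 and a log2 change of at least 1 in size. The fit was tested on simulated data in which few genes changed, in a single group. That setting does not cover a shift of most genes, as in these libraries. The members and lists were chosen with earlier results of these data known. Named members are, per complex, the one with the highest mean FPKM and those with the highest and lowest change in the combination among members averaging at least 5 FPKM, the paralog pairs, complex II, the c-subunit genes, and members called against most others or with the largest interactions; others are marked as chosen after their values were seen. Results for some genes are not reported here. The alternatives were another pseudocount, no filter, 3 rescalings, a replicate block, fits of the compared groups alone and leaving out each library.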

Additional observations from a re-analysis of the deposited data

Results flagged for a closer look

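These results were set apart because effects differed between times, drugs or their combination in a test of the difference itself; no explanation was tested for any of them. The interaction at 24 h was higher for 46 of 83 members and lower for 1 (background 46.8% higher and 0.932% lower). By gene it was -1.98 for NDUFA4L2, 1.93 for ATP5G1, 1.80 for NDUFS6, 1.78 for NDUFA9, 1.71 for ATP5B and 1.67 for SDHB on the log2 scale. Between 24 h and 6 h of imatinib 65 members were lower and 1 was higher (background 33.4% lower and 0.501% higher), and between 24 h and 6 h of JQ1 11 were lower (background 14.2%). JQ1 was below imatinib for 1 member at 24 h (background 4.88%) and for 2 members at 6 h (background 9.36%). On the ratio scale, NDUFA4L2 alone kept a call in the interaction and between the drugs at 24 h. No group here has the 4 libraries that a check for single outlying libraries needs.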

How the results depend on the processing

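A pseudocount of 0.1 changed 9 counts of calls: members lower were 1 with imatinib for 6 h, 15 with JQ1 for 6 h, 82 with imatinib for 24 h, 77 with JQ1 for 24 h, 15 in the combination against JQ1, 66 between the imatinib times and 12 between the JQ1 times, and 47 were higher in the interaction and 1 with JQ1 than with imatinib at 24 h. No filter and fits of the compared groups alone changed none. Replicate numbers do not pair the libraries: of 40 same-numbered pairs 4 had correlations of deviations over 0.1 (range -0.24 to 0.19), and with the replicate block limma called 12 members lower between the JQ1 times and 45 higher in the interaction, with the other counts as reported. Leaving out 1 library gave 0 to 2 members lower with imatinib for 6 h, 4 to 33 with JQ1 for 6 h, 80 to 81 with imatinib for 24 h, 72 to 78 with JQ1 for 24 h, 82 to 83 in the combination, 5 to 12 in the combination against imatinib, 2 to 46 against JQ1, 63 to 68 between the imatinib times and 9 to 20 between the JQ1 times, 0 to 2 higher with JQ1 than with imatinib at 24 h, and 23 to 62 higher in the interaction.

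Rescaling moved most counts, and the cause was not tested. On the ratio scale members called lower were 2 in the combination, 0 with JQ1 for 24 h, 1 with imatinib for 24 h and 0 with JQ1 for 6 h, with 2 higher in the combination and 1 with JQ1 for 24 h; 2 and 0 were lower in the combination against imatinib and JQ1, 1 and 2 between the times of imatinib and JQ1, 0 for JQ1 against imatinib at 6 h, and 0 were higher in the interaction. With equal totals 2 members were lower in the combination (background 8.93%) and 0 with JQ1 for 24 h (5.67%). With imatinib for 24 h (4.01%) and JQ1 for 6 h (6.39%) 0 were lower. Higher were 4, 4 and 3 in the combination (background 1537 of 12771 genes), with JQ1 for 24 h (7.09%) and with imatinib for 24 h (20.0%). The combination had 2 lower against imatinib (11.2%) and 0 against JQ1 (0.846%). Between times 0 were lower with imatinib (1.82%) and JQ1 (1.28%), and 1 was higher with each (13.0% and 9.13%). JQ1 against imatinib had 2 lower at 6 h (7.57%) and 2 at 24 h (12.4%). The interaction had 0 higher (1.92%) and 2 lower (15.3%). With equal totals without MIR1244 3 members were lower in the combination (background 13.5%) and 1 with JQ1 for 24 h (8.26%). With imatinib for 24 h (8.05%) 1 was lower, and with JQ1 for 6 h (5.42%) 0. The combination had 2 lower against imatinib (8.78%) and 0 against JQ1 (0.900%). Between times 1 was lower with imatinib (3.74%) and 1 with JQ1 (2.58%). JQ1 against imatinib at 6 h had 2 lower (6.10%), and the interaction 0 higher (3.97%).

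Of 72 gene results, signs turned on the ratio scale for 27, with these log2 changes against DMSO. In the combination for COX4I1 (0.082), ATP5E (0.10), COX7A2 (0.16), UQCRH (0.24), ATP5G2 (0.29), COX7C (0.37), SDHC (0.48), ATP5EP2 (0.52), SDHD (0.79), COX6A1 (0.85), UQCRBP1 (0.86), COX7A2L (0.92), NDUFA4L2 (0.96), SDHA (1.04). With JQ1 for 24 h for ATP5G2 (0.20), SDHC (0.48), SDHD (0.58), NDUFA4L2 (0.73), SDHA (0.97). With imatinib for 24 h for COX7A1 (0.080), SDHC (0.27), SDHD (0.32), ATP5G2 (0.35), SDHA (0.44). With JQ1 for 6 h for NDUFA4L2 (0.066), COX7A1 (0.29). With imatinib for 6 h for COX7A1 (0.035). With equal totals 27 turned. In the combination for SDHB (0.00064), COX6B1 (0.10), COX4I1 (0.21), ATP5E (0.23), COX7A2 (0.29), UQCRH (0.37), ATP5G2 (0.41), COX7C (0.49), SDHC (0.61), ATP5EP2 (0.65), SDHD (0.92), COX6A1 (0.97), UQCRBP1 (0.99), COX7A2L (1.04), NDUFA4L2 (1.09), SDHA (1.17). With JQ1 for 24 h for ATP5G2 (0.30), SDHC (0.58), SDHD (0.68), NDUFA4L2 (0.83), SDHA (1.07). With imatinib for 24 h for COX7A1 (0.52), SDHC (0.72), SDHD (0.77), ATP5G2 (0.80), SDHA (0.89). With imatinib for 6 h for COX7A1 (0.028). Without MIR1244 in the totals 23 turned. In the combination for COX7A2 (0.013), UQCRH (0.10), ATP5G2 (0.14), COX7C (0.22), SDHC (0.34), ATP5EP2 (0.39), SDHD (0.64), COX6A1 (0.70), UQCRBP1 (0.72), COX7A2L (0.77), NDUFA4L2 (0.83), SDHA (0.89). With JQ1 for 24 h for ATP5G2 (0.090), SDHC (0.37), SDHD (0.47), NDUFA4L2 (0.62), SDHA (0.86). With imatinib for 24 h for COX7A1 (0.15), SDHC (0.34), SDHD (0.39), ATP5G2 (0.42), SDHA (0.51). With JQ1 for 6 h for COX7A1 (0.042). Without DMSO replicate 1, NDUFA4L2 turned to -0.037 with imatinib for 6 h; leaving out each library gave -0.037 to 0.38. Depth is unknown, so no limit for low values such as COX4I2 can be given; 3 libraries a group limit the precision.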
